A study of Mus musculus with 8 samples.

Results

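The chondrocyte lineage genes are Sox9, Sox5, Sox6, Col2a1, Acan, Comp, Matn3 and Col10a1, which are 8 of the 22380 protein-coding genes in the annotation. They were taken by name and located in the mouse genome build mm9 with the GENCODE annotation. For each gene, open chromatin was read at its transcription start sites (any base of a peak within 1000 bases of a start) and in a window of the gene with 50 kb on either side, or 300 kb for Sox9.

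Sox9 is the transcription factor that commits mesenchymal cells to the chondrocyte fate, and Sox5 and Sox6 act with it on cartilage genes. Col2a1 (type II collagen), Acan (aggrecan, the large proteoglycan), Comp (cartilage oligomeric matrix protein) and Matn3 (matrilin 3) make up or link the cartilage matrix, and Col10a1 (type X collagen) marks hypertrophic chondrocytes. Multipotent stromal cells of the bone marrow can form cartilage in culture, and an accessible start site is common at genes that are active or poised.

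The data were 7 ATAC-seq libraries, titled ATAC1 to ATAC7, and 1 Input library that served all of them as control. By the labels, all were made from stromal cells of the bone marrow, taken 6 weeks after birth from C57BL/6J mice of the wild type, and the labels of these samples give no treatment or transgene. The study sorted stromal cells by surface markers into 7 populations, but the labels do not tie a title to a population, so libraries are called by their titles. Each title had 1 library, so no difference between libraries has a replicate check and none was tested.

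The libraries differed in how many peaks were called, and this touches every count below. The lists held 32280 peaks in ATAC2, 31479 in ATAC5, 28969 in ATAC6 and 24510 in ATAC1, but 16027 in ATAC3, 15650 in ATAC4 and 15188 in ATAC7. A gene without a peak is one where none passed the caller's threshold, and the least-covered peak on any list held 21 library reads. Of 15 stromal marker genes, 3 to 7 had a start-site peak in a library, against 2 to 6 of 12 haematopoietic and 0 to 4 of 10 endothelial genes. In every library each of these shares was below that of all protein-coding genes. The haematopoietic share was above the stromal one in ATAC3 (33.3% against 20%), ATAC4 (25.0% against 20%) and ATAC5 (50% against 46.7%). Pdgfra, one of the markers of the sorted cells, had a start-site peak in ATAC2, ATAC4, ATAC5, ATAC6 and ATAC7. Ly6a, which encodes the other sort marker Sca-1, had none in any library. The sort of the study also removed cells with CD31, CD45 or Ter119 on their surface. Ptprc, which encodes CD45, had a start-site peak in ATAC1 (84 reads against 2), ATAC3 (70 against 0), ATAC5 (60 against 2) and ATAC7 (58 against 1), and Pecam1, which encodes CD31, had one in ATAC2 (49 against 12) and ATAC5 (56 against 7). The part of other cell types in the results was not tested.

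The stretches below were called at the start sites of Sox9 (in ATAC5), Col2a1 (in ATAC2), Acan (in ATAC2) and Matn3 (over ATAC2, ATAC5 and ATAC6), and they are shown because start-site calls of these genes are described next. Peaks of other libraries at the same genes can lie beside these stretches. Capitals mark the GC box GGGCGG and the RUNX core TGTGGT, searched on both strands, and a capital run can be the reverse complement of the motif. The sequences are those of mm9 on the strand of the gene, and all 4 end before the first transcribed base of the gene. The Sox9 stretch held neither motif, the Acan and Matn3 stretches held the GC box alone, and the Col2a1 stretch held both.
Sox9 start, chr11:112643106-112643371, plus strand: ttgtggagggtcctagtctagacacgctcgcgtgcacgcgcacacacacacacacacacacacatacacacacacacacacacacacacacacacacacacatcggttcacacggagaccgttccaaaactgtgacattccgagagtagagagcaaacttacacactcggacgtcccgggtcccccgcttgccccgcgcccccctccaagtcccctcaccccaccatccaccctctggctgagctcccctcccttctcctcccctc
Col2a1 start, chr15:97835156-97835431, minus strand: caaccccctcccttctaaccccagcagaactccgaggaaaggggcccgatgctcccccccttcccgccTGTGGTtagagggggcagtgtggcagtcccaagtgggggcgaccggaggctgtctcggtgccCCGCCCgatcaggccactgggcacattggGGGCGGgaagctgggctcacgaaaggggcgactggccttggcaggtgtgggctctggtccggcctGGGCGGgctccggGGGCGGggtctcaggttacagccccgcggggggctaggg
Acan start, chr7:86198000-86198132, plus strand: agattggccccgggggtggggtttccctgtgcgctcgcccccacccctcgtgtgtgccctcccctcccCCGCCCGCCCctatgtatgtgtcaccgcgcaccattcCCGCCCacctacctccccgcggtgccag
Matn3 start, chr12:8954622-8954734, plus strand: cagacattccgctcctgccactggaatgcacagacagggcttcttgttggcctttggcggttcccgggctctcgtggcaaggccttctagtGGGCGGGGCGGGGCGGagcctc

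Start sites of the chondrocyte genes were called mainly in ATAC2, ATAC5 and ATAC6. In ATAC5, 6 of the 8 genes had a start-site peak (all but Acan and Col10a1), in ATAC2 5 (Sox9, Sox5, Col2a1, Acan and Matn3) and in ATAC6 5 (Sox9, Sox6, Col2a1, Acan and Matn3). ATAC1 had 2 (Sox9 and Sox6), ATAC4 had 1 (Sox6), ATAC7 had 1 (Sox9) and ATAC3 had 0. Of 56 pairs of a gene and a library, 20 had a peak, and 16 of these lay in ATAC2, ATAC5 and ATAC6. Among all protein-coding genes the share with a start-site peak ranged from 42.1% in ATAC7, 43.6% in ATAC3 and 43.7% in ATAC4 to 49.1% in ATAC1, 50.4% in ATAC2, 51.6% in ATAC6 and 52.9% in ATAC5. The 8 genes thus stood at 75.0% in ATAC5 and at 62.5% in ATAC2 and ATAC6, above the share of all genes, and at 25.0%, 0%, 12.5% and 12.5% in ATAC1, ATAC3, ATAC4 and ATAC7, below it.

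The pattern did not hold at equal list length. With each list limited to its 15188 best-ranked peaks, 1 gene remained in ATAC1 (Sox9), 2 in ATAC2 (Acan and Matn3), 0 in ATAC3, 1 in ATAC4 (Sox6), 1 in ATAC5 (Comp), 0 in ATAC6 and 1 in ATAC7 (Sox9). The share of all genes was then 41.6% to 46.0% in every library. The start-site peaks of the 8 genes stood low in their lists: the best-ranked one of each pair lay between 27.1% and 98.0% of the way down, and 4 of 20 fell in the better-ranked 50%. For all protein-coding genes with a start-site peak, the median position of the best-ranked one was 18.1% to 30.6% down the list.

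**Figure D1:**
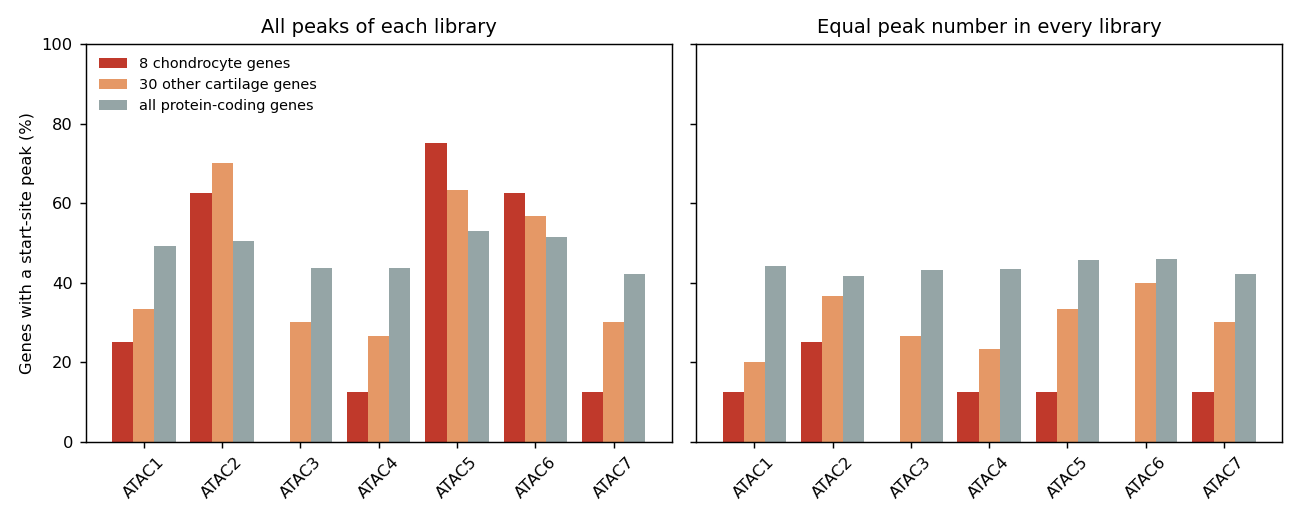
Percent of genes with a start-site peak in each library, for the 8 chondrocyte genes, 30 other cartilage genes and all protein-coding genes; the left panel uses every peak and the right panel the 15188 best-ranked peaks of each library. On the left the chondrocyte genes reach 75.0% in ATAC5 and 62.5% in ATAC2 and ATAC6, and on the right they are below all genes in every library.

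Sox9, the commitment factor, had an open start site in 5 of 7 libraries, the most of the 8 genes by this rule. Reads of the library and of Input are given for the wider region around each best-ranked peak, with the authors' fold over Input and its 95% exact counting interval. At Sox9 there were 79 reads against 8 in ATAC1 (fold 12.1, 5.87 to 29.1), 233 against 40 in ATAC2 (9.20, 6.56 to 13.2) and 148 against 17 in ATAC5 (14.9, 9.0 to 26.3). ATAC6 had 149 against 15 (15.6, 9.18 to 28.6), and ATAC7 had 103 against 31 (3.67, 2.43 to 5.67). The fold was lowest in ATAC7, whose peak did not overlap those of ATAC1 and ATAC6 and whose whole list also had a lower median fold (5.97) than the lists of these 4 libraries (7.89 to 10.9). ATAC3 and ATAC4 had no peak nearer than 387871 and 387882 bases. The called stretch, merged over the libraries, ran over 868 bases at chr11:112642875-112643742. It also lay within 1000 bases of a start of BC006965, a transcript annotated next to Sox9.

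Sox5 and Sox6, the partners of Sox9, are long genes with several start sites. At Sox5, which spans 954 kb with 12 annotated starts, ATAC2 had 71 reads against 8 (fold 14, 6.74 to 33.7) and ATAC5 had 53 against 10 (9.07, 4.57 to 20). Both peaks covered an internal start at chr6:144157929-144158225. The ATAC5 peak was among the weakest of its list, at 98.0% of the way down. At Sox6 (567 kb, 5 starts), ATAC1 had 89 reads against 6 (18.2, 8.05 to 51.0), ATAC4 had 85 against 11 (8.74, 4.65 to 18.2), ATAC5 had 96 against 32 (5.14, 3.41 to 7.93) and ATAC6 had 115 against 40 (4.53, 3.13 to 6.66). These best-ranked peaks were not at the same place: the ATAC1 and ATAC4 peaks lay 81 and 900 bases from a start inside the gene, and the ATAC5 and ATAC6 peaks lay 944 and 875 bases from another start and also near the start of 1110006G14Rik. At that same start ATAC1 had a further, lower-ranked peak, with 101 reads against 38 (3.26, 2.23 to 4.87). The nearest peak edge of ATAC2 lay 1010 bases from a Sox6 start, just beyond the limit.

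Col2a1 and Matn3 were called in ATAC2, ATAC5 and ATAC6 and in no other library. At Col2a1, ATAC2 had 104 reads against 40 (fold 4.11, 2.83 to 6.07), ATAC5 had 59 against 22 (4.59, 2.77 to 7.87) and ATAC6 had 89 against 43 (3.26, 2.24 to 4.81). The 3 intervals overlap. The ATAC2 and ATAC6 peaks covered the start itself, at chr15:97835034-97835431. The ATAC5 peak, at chr15:97834780-97834967, was centred on the first coding exon and had 60 of its bases in intron 1, where an enhancer of this gene is known. No other peak of any library touched that intron.

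At Matn3, ATAC2 had 143 reads against 35 (6.45, 4.43 to 9.63), ATAC5 had 63 against 24 (4.49, 2.77 to 7.52) and ATAC6 had 85 against 25 (5.35, 3.39 to 8.73). The peaks fell within 113 bases just before the start, at chr12:8954622-8954734, and the stretch is printed above. In the remaining 4 libraries the nearest peak was 24641 to 25984 bases away, near the neighbour Laptm4a.

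Acan was called in ATAC2 and ATAC6 alone. ATAC2 had 206 reads against 44 (7.40, 5.32 to 10.5) and ATAC6 had 71 against 25 (4.47, 2.80 to 7.36). In ATAC5 the nearest peak lay 62972 bases away, although that list is almost as long as that of ATAC2. The called stretch, chr7:86197532-86198191, lies upstream of Acan and inside the overlapping gene Gm16936. It also lay within 1000 bases of a start of Gm16936.

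Comp differed from the other matrix genes in that all 7 libraries called a peak in its intron 3, at chr8:72898380-72898735. Reads against Input were 121 against 31 in ATAC1 (fold 4.79), 173 against 65 in ATAC2 (4.2), 70 against 24 in ATAC3 (2.94) and 115 against 36 in ATAC4 (3.62). They were 198 against 54 in ATAC5 (6.28), 289 against 72 in ATAC6 (6.32) and 117 against 42 in ATAC7 (3.08). Folds were lowest in ATAC3 and ATAC7 and highest in ATAC6 and ATAC5. Only the ATAC5 peak, 923 bases from the start, met the limit of 1000 bases, and the others began 1099 to 1144 bases away, so the start-site count of Comp is 1 within 1000 bases and 7 within 2000 bases. It held the best-ranked peak of ATAC1, ATAC3, ATAC4, ATAC6 and ATAC7 in the 8 windows, leaving out start sites of other genes. This was the 1 region away from other genes' starts that all 7 libraries shared in the windows.

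Col10a1, the hypertrophic marker, was not called at its start site by any library. The nearest peaks were in ATAC2 and ATAC6, 4280 bases upstream, with 144 reads against 10 in ATAC2 (fold 22.7) and 80 against 7 in ATAC6 (18.0). In the other 5 libraries the nearest peak was 28314 to 28566 bases away, at the start of Nt5dc1, the gene within which Col10a1 lies. It was 1 of 9658 protein-coding genes (43.2%) that no library called at a start site.

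**Figure D2:**
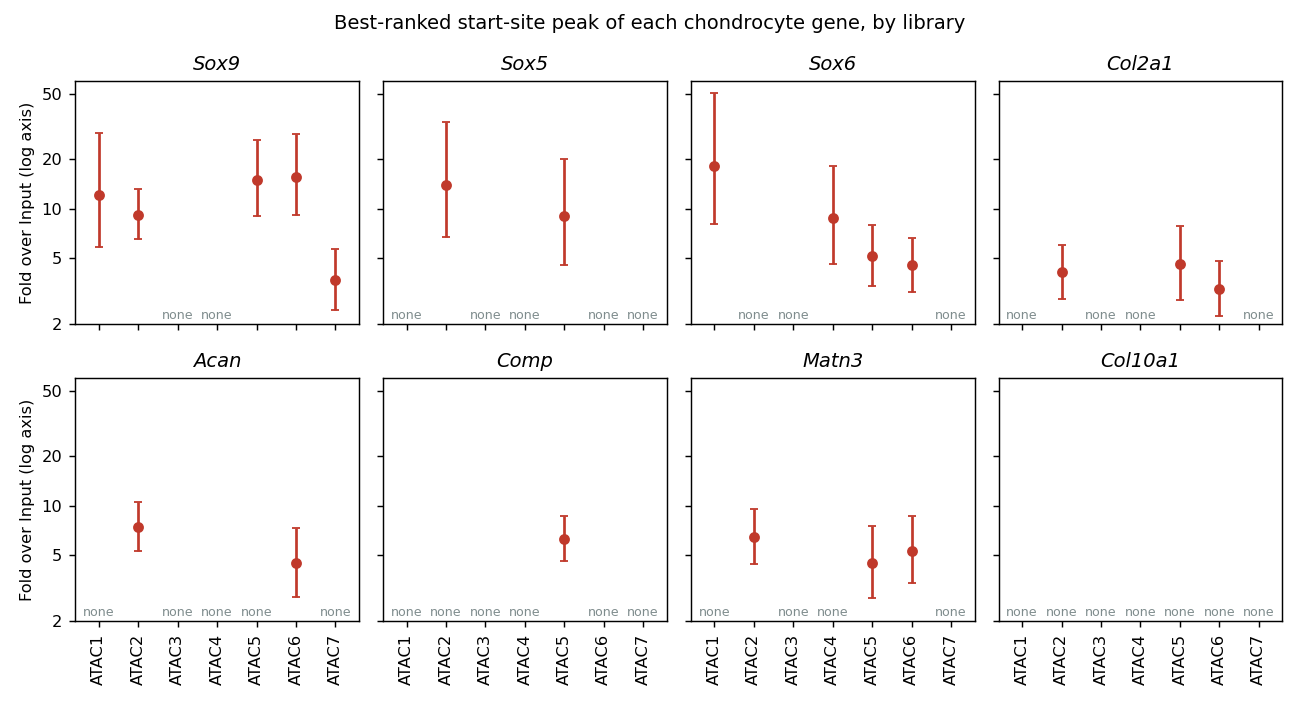
Fold over Input (log axis) of the best-ranked start-site peak of each chondrocyte gene in each library, with bars for the 95% exact interval of counting error; "none" marks a library without a start-site peak. Sox9 has 5 points, Sox6 4, Col2a1 and Matn3 3 each, and Col10a1 none.

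Of 30 genes on a list of further cartilage collagens, matrix proteins, receptors and transcription factors, 21 had a start-site peak in ATAC2, 19 in ATAC5, 17 in ATAC6 and 10 in ATAC1. There were 9 in ATAC3, 8 in ATAC4 and 9 in ATAC7. The shares of 70.0%, 63.3% and 56.7% in ATAC2, ATAC5 and ATAC6 were above those of all genes, and the shares in the other 4 libraries, 26.7% to 33.3%, were below them. At equal list length these counts were 11, 10, 12 and 6 in ATAC2, ATAC5, ATAC6 and ATAC1, and 8, 7 and 9 in ATAC3, ATAC4 and ATAC7, which is 20% to 40% of the list, below the share of all genes in every library. The list held 7 genes called in all 7 libraries (Nkx3-2, Mef2c, Trps1, Zbtb20, Foxc1, Hif1a and Ptch1), where 37.0% of all genes were, and 8 called in none (Matn1, Matn4, Prg4, Epyc, Cytl1, Ihh, Barx1 and Mmp13), where 43.2% of all genes were.

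Col2a1 and Matn3 shared their exact pattern of calls (ATAC2, ATAC5 and ATAC6) with 415 other protein-coding genes, 1.85% of all, each other included. Of the cartilage list, 6 had this pattern: Col9a1 and Col9a2, chains of the type IX collagen that coats type II fibrils, Hapln1, the link protein of aggrecan, Chad (chondroadherin), Lect1 (chondromodulin) and Pth1r, the receptor for parathyroid hormone and its related peptide. These patterns use every peak. At equal list length only Hapln1 of the genes just named kept its calls in ATAC2, ATAC5 and ATAC6. Col9a1, Chad and Matn3 kept ATAC2 alone, Col9a2 and Pth1r kept ATAC6 alone, and Lect1 and Col2a1 kept none. With every peak, the pattern of Sox5 was shared by 142 genes, with Ucma from the list. That of Sox9 was shared by 144, Acan by 98, Comp by 302 and Sox6 by 51, with none from the list. Osteoblast genes, 8 in number, had start-site peaks for 3, 4, 1, 0, 3, 4 and 1 of them in ATAC1 to ATAC7, and 8 adipocyte genes for 2, 2, 2, 2, 3, 2 and 2. These were 0% to 50% and 25.0% to 37.5% of the genes, below the share of all genes in each library.

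The CpG ratio of the promoters, but not their GC, set Sox9 apart. It was the 1 member with a CpG-rich start (GC of at least 55% and a CpG ratio, observed over expected, of at least 0.65 in 1000 bases), with a GC of 62.6% and a ratio of 0.80. Acan (GC 64.2%, ratio 0.64) and Col2a1 (63.8%, 0.62) had a higher GC but were just below the limit of the ratio. By ratio, Matn3 (0.55), Comp (0.53) and Sox6 (0.52) came next, and Sox5 and Col10a1 had 0.34 each. Of 8824 genes with a CpG-rich start, 76.6% to 88.3% had a start-site peak, depending on the library, and of 13548 others 19.7% to 29.8%. Of the 7 remaining members, 5 had a peak in ATAC5, where 29.8% of the second group did. There were 4 each in ATAC2 (27.5%) and ATAC6 (28.5%) and 1 each in ATAC1 (26.5%) and ATAC4 (21.0%). ATAC3 (20.6%) and ATAC7 (19.7%) had 0. These counts use every peak. At equal list length only Acan and Matn3 in ATAC2, Sox6 in ATAC4 and Comp in ATAC5 remained of the 7. The share of the second group at that length is not given here.

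In the windows, peaks of different libraries that shared a base were merged, which gave 92 regions from 213 peaks. Of these regions 14 lay at a start of a member, 10 at a start of another gene alone and 68 away from any start site. The windows held 62 peaks of ATAC2, 49 of ATAC6, 43 of ATAC5 and 26 of ATAC1, but 12 of ATAC4, 11 of ATAC7 and 10 of ATAC3. Per 100 kb of window, the median over the 8 genes was 4.35 peaks in ATAC2, 2.39 in ATAC6 and 2.17 in ATAC5, against medians of 1.99, 1.94 and 1.99 over the windows of all protein-coding genes. It was 0.837 in ATAC1, against 1.76, and 0.697 in ATAC3, ATAC4 and ATAC7, against 0.993, 0.991 and 0.968. Pooled over the 8 windows, of which those of Sox5, Sox6 and Sox9 are the longest, the density was 2.10 in ATAC2, 1.66 in ATAC6 and 1.45 in ATAC5. At equal list length the windows held 9 (ATAC3) to 15 (ATAC2) peaks in a library.

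**Figure D3:**
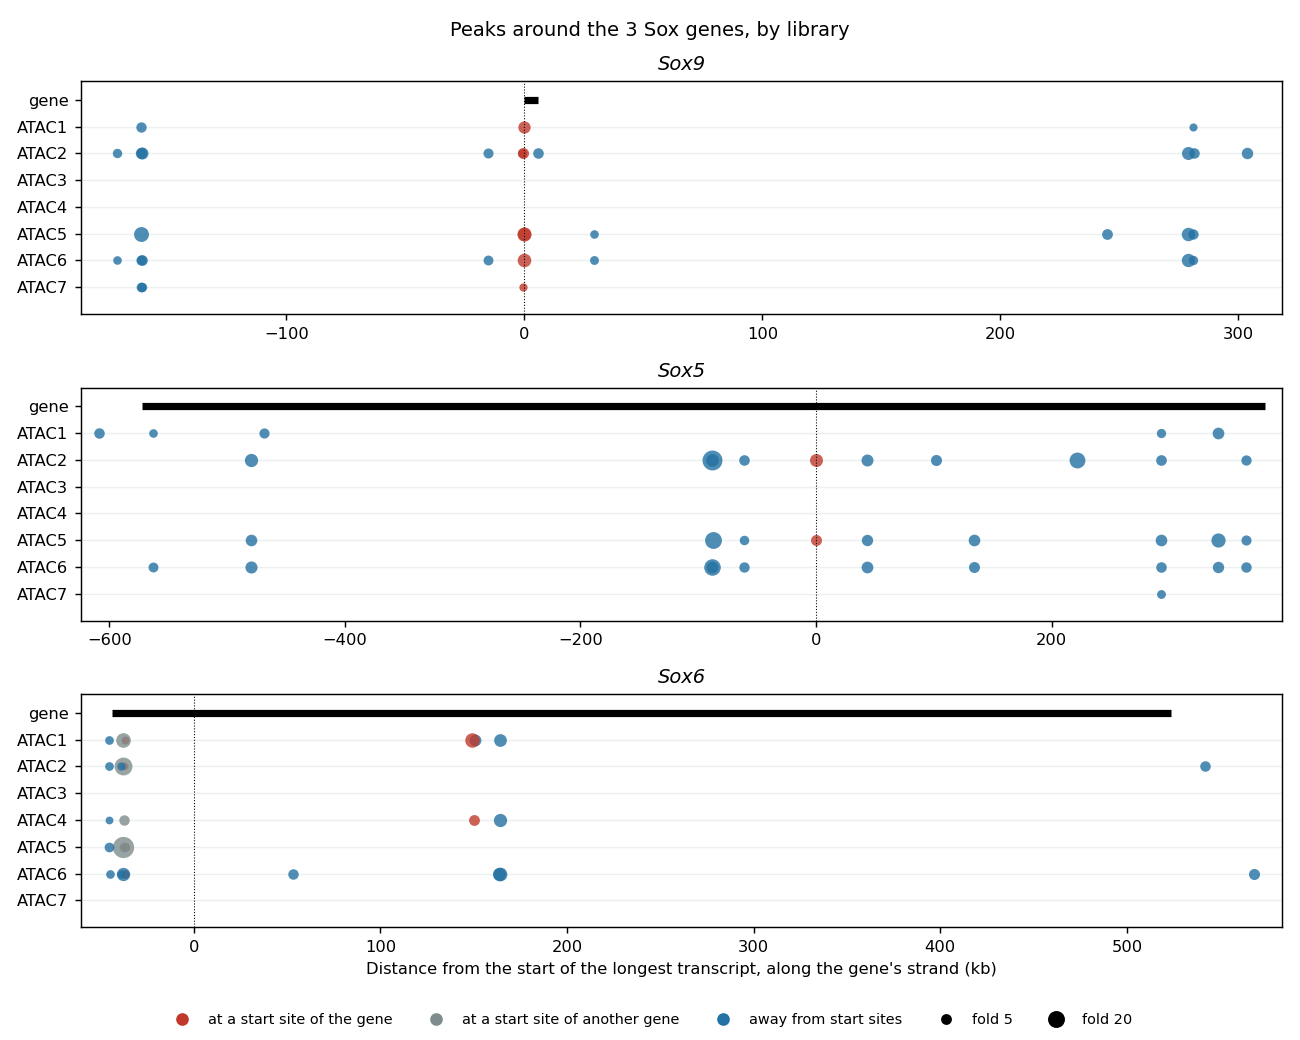
Peaks in the windows of Sox9, Sox5 and Sox6 by library, placed by their distance in kb from the start of the longest transcript along the strand of the gene; colour gives the kind of region and dot size grows with the fold over Input. The Sox9 window has no peak of ATAC3 or ATAC4, and the Sox6 window none of ATAC3 or ATAC7.

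The 68 regions away from start sites were called mostly in ATAC1, ATAC2, ATAC5 and ATAC6. ATAC2 called 42 (61.8%), where 53.9% of all 29855 such regions in the genome were called. ATAC6 called 35 (51.5%, against 44.6%), ATAC5 25 (36.8%, against 51.2%) and ATAC1 11 (16.2%, against 31.1%). ATAC4 called 3 (4.41%, against 11.4%), ATAC7 2 (2.94%, against 13%) and ATAC3 0, where 12.4% of all such regions were called and a count of 0 of 68 has a 95% Wilson upper bound of 5.35%. Shares in ATAC2 and ATAC6 were above the genome and shares in the other 5 below it. The genome's share lay within the 95% Wilson intervals in ATAC2 (49.9% to 72.4%), ATAC6 (39.8% to 62.9%) and, at its upper end, in ATAC4 (1.51% to 12.2%). It lay above the upper bound in ATAC5 (48.6%), ATAC1 (26.7%), ATAC7 (10.1%) and ATAC3, though regions of 1 window are not independent.

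Of the 68 regions, 57 (83.8%) were called in no library other than ATAC2, ATAC5 and ATAC6, against 61.7% of all such regions. A single library called 37 (54.4%), against 50.1% of all. None was called in more than 5 libraries, while 3.87% of all were called in 7. Neighbouring peaks that share no base count apart here, and the single-library share depends on this rule. Of all 92 window regions, 47 were in 1 library. This became 31 of 77 when peaks within 200 bases were merged, and 30 of 75 with the wider regions around peaks. At equal list length 18 regions remained, of which ATAC2 called 8, ATAC6 6, ATAC5 4, ATAC4 3, ATAC1 2, ATAC7 2 and ATAC3 0. As shares these were 44.4%, 33.3%, 22.2%, 16.7%, 11.1%, 11.1% and 0%, against 42.5%, 37.5%, 39.0%, 28.6%, 33.1%, 35.6% and 29.0% of all regions, so that ATAC6 turned from above to below the genome.

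**Figure D4:**
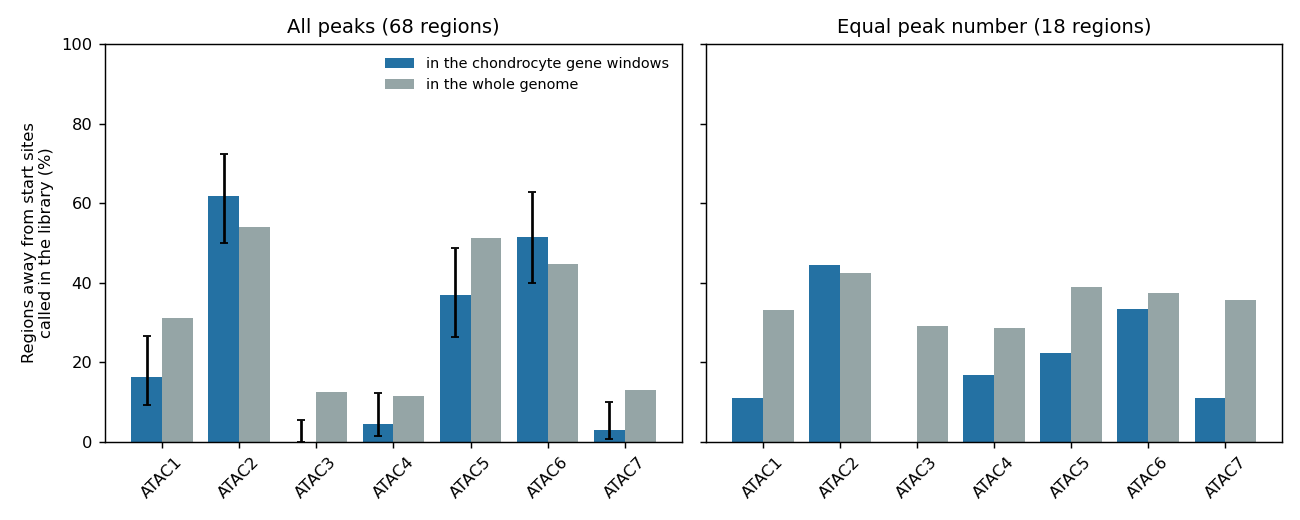
Percent of regions away from start sites that each library called, in the windows of the chondrocyte genes and in the whole genome, with all peaks (left; bars for the 95% Wilson interval) and with equal peak number (right). With all peaks the windows stand at 61.8% in ATAC2, 51.5% in ATAC6 and 0% in ATAC3.

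The next 4 stretches are 300 bases around the centre of regions away from start sites. They are shown because the Sox9 upstream and Sox5 regions were called in 5 libraries, which with 1 region near Sox6 is the most of any such region, the Sox9 downstream region held the peak with the most reads around that gene, and the Col10a1 region holds the peak nearest to its start. The last 2 named were chosen after their values were seen. Capitals mark TGTGGT, the RUNX core, and TGACTCA, the AP-1 site, on either strand.
Sox9 upstream region, chr11:112482502-112482801, plus strand: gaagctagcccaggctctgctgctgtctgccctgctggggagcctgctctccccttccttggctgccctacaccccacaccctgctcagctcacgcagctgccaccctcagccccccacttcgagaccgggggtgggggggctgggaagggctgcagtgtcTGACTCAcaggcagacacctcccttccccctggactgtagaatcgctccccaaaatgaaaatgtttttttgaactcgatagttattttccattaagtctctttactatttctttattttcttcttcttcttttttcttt
Sox9 downstream region, chr11:112924460-112924759, plus strand: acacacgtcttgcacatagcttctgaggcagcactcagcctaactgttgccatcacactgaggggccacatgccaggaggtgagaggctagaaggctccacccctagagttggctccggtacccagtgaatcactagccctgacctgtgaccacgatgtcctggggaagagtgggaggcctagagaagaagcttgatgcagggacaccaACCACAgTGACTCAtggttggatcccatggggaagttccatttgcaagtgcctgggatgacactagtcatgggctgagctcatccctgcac
Sox5 intron region, chr6:143864802-143865101, minus strand: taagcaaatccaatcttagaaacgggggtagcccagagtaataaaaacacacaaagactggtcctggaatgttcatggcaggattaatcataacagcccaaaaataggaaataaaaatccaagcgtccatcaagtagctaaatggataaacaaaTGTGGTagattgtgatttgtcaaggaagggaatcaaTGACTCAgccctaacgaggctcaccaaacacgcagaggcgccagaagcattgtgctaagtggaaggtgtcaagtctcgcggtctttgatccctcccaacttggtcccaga
Col10a1 upstream region, chr10:34105215-34105514, plus strand: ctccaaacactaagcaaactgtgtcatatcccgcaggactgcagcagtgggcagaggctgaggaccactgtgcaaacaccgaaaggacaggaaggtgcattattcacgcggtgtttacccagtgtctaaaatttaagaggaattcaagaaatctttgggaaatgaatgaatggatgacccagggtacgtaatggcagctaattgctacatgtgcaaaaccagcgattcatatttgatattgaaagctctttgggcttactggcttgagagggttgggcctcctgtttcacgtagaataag

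Around Sox9, 9 regions lay away from start sites. The upstream one printed, at -161 kb from the Sox9 start (chr11:112482349-112482956), lies between genes. Its best-ranked peak had 100 reads against 16 in ATAC1 (fold 7.67), 65 against 9 in ATAC2 (11.4), 272 against 24 in ATAC5 (19.4), 89 against 17 in ATAC6 (8.24) and 58 against 11 in ATAC7 (5.82). The same 5 libraries called the Sox9 start. The downstream one, at chr11:112924275-112924945 inside the transcript 2610035D17Rik, had 100 reads against 36 in ATAC1 (3.41), 328 against 65 in ATAC2 (7.97), 236 against 53 in ATAC5 (7.63) and 207 against 58 in ATAC6 (5.62). It held the best-ranked peak of ATAC5 in the 8 windows outside start sites of other genes, at 32.9% of the way down the list. Close by, at chr11:112922431-112922582, ATAC2, ATAC5 and ATAC6 had 71, 71 and 76 reads against 8 each.

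Sox5 had 18 such regions, 17 of them within the gene. The one printed, in intron 8, had 40 reads against 9 in ATAC1 (5.45), 101 against 19 in ATAC2 (8.39), 136 against 22 in ATAC5 (10.6), 103 against 20 in ATAC6 (8.10) and 56 against 13 in ATAC7 (4.75). The highest fold of any peak away from start sites in the 8 windows was also in Sox5: 189 reads against 8 in ATAC2 (fold 37.3) at chr6:144245808-144245998, where ATAC6 had 189 against 12 (24.8). An adjoining stretch had 75 reads against 5 in ATAC5 (25.6). Sox6 had 10 such regions, and the one called most, just upstream of the gene at chr7:123183417-123183942, had folds between 2.93 in ATAC4 and 6.40 in ATAC5 over ATAC1, ATAC2, ATAC4, ATAC5 and ATAC6.

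The matrix genes with a start-site call had 4 to 9 such regions each, called in up to 3 libraries. Acan had 9, of which ATAC2 called 7, ATAC6 4 and ATAC5 2. Only 2 of the 9 lay within Acan, and those that ATAC5 called lay inside the neighbour Mfge8. None of the Acan regions was called in more than 2 libraries. Among those called in 2, the one at -9.65 kb (chr7:86188566-86188870) had the most reads. These were 132 against 17 in ATAC2 (12.3) and 51 against 10 in ATAC6 (8.02). Comp had 6, and that at -1.29 kb (chr8:72895922-72896384) was called in ATAC2 (118 reads against 27, fold 6.90), ATAC5 (122 against 21, 9.95) and ATAC6 (89 against 27, 5.19). Matn3 had 7, and that in intron 2 (chr12:8961103-8961377) was called in ATAC2 (153 against 36, 6.71) and ATAC5 (58 against 25, 3.97). Col2a1 had 4, each called in 1 library, the one with the most reads being that of ATAC2 at -9.68 kb (69 against 10, fold 10.9).

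Col10a1, which had no start-site peak, had 5 regions away from start sites, called 5 times in ATAC2, 3 in ATAC6 and 1 in ATAC5, all inside Nt5dc1. The one at -46.8 kb (chr10:34062887-34063144) had 159 reads against 16 in ATAC2 (15.7), 93 against 16 in ATAC5 (9.95) and 64 against 13 in ATAC6 (7.75). It was the best-ranked peak of ATAC2 in the 8 windows outside start sites of other genes, at 27.1% of the way down the list. At -33.3 kb ATAC2 had 166 reads against 8 (32.7) and ATAC6 99 against 5 (31.1).

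**Figure D5:**
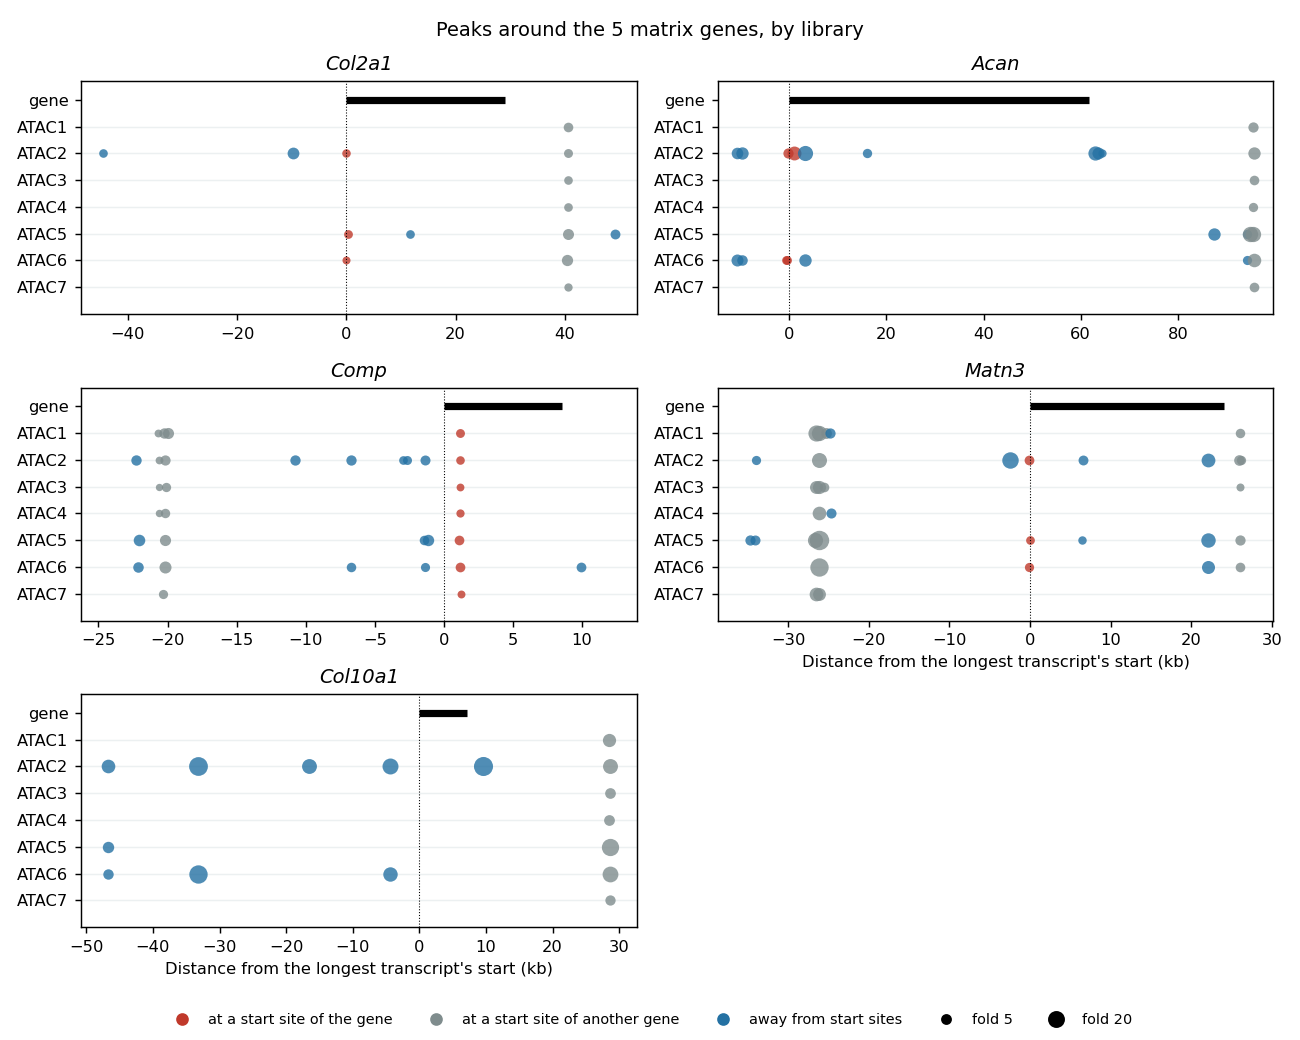
Peaks in the windows of Col2a1, Acan, Comp, Matn3 and Col10a1 by library, placed by their distance in kb from the start of the longest transcript; colour gives the kind of region and dot size grows with the fold over Input. The intron peak of Comp at 1.11 kb is present in all 7 libraries, and the Col10a1 window has peaks away from start sites in ATAC2, ATAC5 and ATAC6 alone.

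The share of the 68 regions with a motif was near that of all such regions for most motifs searched, and no difference was tested. In 300 bases around the centre, the SOX core AACAAT was found in 3 of 68 regions (4.41%, against 9.28% of all regions away from start sites), TGTGGT in 19 (27.9%, against 30.8%), TGACTCA in 14 (20.6%, against 24.4%) and GGGCGG in 8 (11.8%, against 12.9%), on either strand. TGAGTCA is the reverse complement of TGACTCA and gave the same matches. An inverted pair of SOX cores, AACAAT and ATTGTT 3 to 5 bases apart, was in none, and it was in 0.00335% of all such regions, too few to read anything from. At the 14 regions on member start sites GGGCGG was in 9 (64.3%), against 56.9% of all regions at start sites. The median GC was 50.9% in the 68 regions and 49.7% in all.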

How the data were processed

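The authors aligned reads to mm9 with bowtie and called peaks per library against the single Input with CisGenome in two-sample mode (p-value limit 1e-05, FDR under 0.01). Transposase shifts, duplicate removal and the versions of bowtie and CisGenome are not given in the sources used here, and the labels' extract protocol describes RNA, whereas the study's methods describe transposition. The deposited tables have no header, so columns were identified from the values. The deposited read counts cover a wider region around each peak, whose width differs between libraries. The authors' fold is a ratio: a scale factor times library reads over Input reads plus 0.01. The authors' ranking statistic is a signal column, read only through its rank.

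Start sites, genes and sequences came from NCBIM37 with GENCODE vM1. Coordinates were read as inclusive, and a start may differ by 1 base. Intervals (95%, exact for folds, Wilson for shares) cover counting error only. Python 3.11.15, pandas 2.3.3, scipy 1.17.1, samtools 1.23.1 and bedtools 2.31.1 were used, and overlap steps were tested on simulated data. Regions named were those at member starts, the one called in most libraries per gene away from starts (ties by reads), any in Col2a1 intron 1, and the best-ranked window peak of a library. Further regions named were chosen after their values were seen. They were Sox9 near 279 kb and 281 kb, Sox5 at chr6:144245808-144245998, Matn3 in intron 7 and Col10a1 at -33.3 kb and -4.42 kb. Members and lists were chosen with earlier results of these data known. Alternatives were limits, windows, merging rules, list length and fold.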

Additional observations from a re-analysis of the deposited data

How the results depend on the processing

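Depth, list length and library cannot be told apart with 1 library per title, and a gene without a peak is one below the caller's threshold. No paired analysis was possible because the groups compared are single libraries, with no numbered replicates to pair. Of 190 recomputed values, 83 of those for libraries, regions and all genes and 51 of those for single members stayed within 1.5 times the reported count or within the interval of the reported share, and 43 and 13 did not.

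With equal peak number, members with a start-site peak were 1 in ATAC1, 2 in ATAC2, 1 in ATAC5 and 0 in ATAC6, window peaks were 14, 15, 11 and 13 in those libraries, and regions away from start sites were 2, 8, 4 and 6 of 18. Merged regions were then 33, with 20 in 1 library (47 of 92 with all peaks), and the shares of all genes were 44.3%, 41.6%, 45.7% and 46.0%. With a limit of 500 bases ATAC4 had 0 members, and with 2000 bases ATAC3 had 1, ATAC4 2 and ATAC7 2, while regions away from starts fell to 7 in ATAC1 and 1 in ATAC4. With folds of at least 5, ATAC6 had 2 members and ATAC7 0, and window peaks were 6 in ATAC3 and 7 in ATAC7. Windows of 20 kb held 15, 3, 6, 25 and 4 peaks in ATAC1, ATAC3, ATAC4, ATAC5 and ATAC7, and windows of 100 kb (1000 kb for Sox9) held 52, 103, 27, 30, 85, 97 and 28 in ATAC1 to ATAC7. Regions in 1 library were 31 of 77 when peaks within 200 bases were merged and 30 of 75 with the wider regions. Of single genes, Comp had 0 to 7 start-site libraries depending on the limit, Col2a1 had 0 with equal peak number or folds of at least 5, Acan 1 with either, and with equal peak number Sox9 had 2, Sox5 0, Sox6 1 and Matn3 1. Sox6 also had 1 within 500 bases. The cause of these changes beyond the shorter lists was not tested.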

Other observations

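Of 10 regions at start sites of other genes alone in the windows, 5 were called in every library. Start sites of Tmem106c beside Col2a1, Mfge8 beside Acan, Upf1 beside Comp, Laptm4a beside Matn3 and Nt5dc1 around Col10a1 each lay in a region called in all 7 libraries. At Nt5dc1 the reads were 770, 860, 525, 491, 1140, 971 and 427 in ATAC1 to ATAC7, against 63 to 72 in Input, and at Tmem106c 305, 195, 259, 201, 355, 367 and 128, against 38 to 67. In the windows of Col2a1, Acan, Comp, Matn3 and Col10a1 every library thus had at least 1 call. The windows of Sox9 and Sox5 had 0 peaks of ATAC3 and ATAC4, and that of Sox6 had 0 of ATAC3 and ATAC7.

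In the wider surroundings of Sox9, 1000 kb on either side, there were 119 peaks in 42 regions, with 17, 27, 9, 10, 23, 25 and 8 peaks in ATAC1 to ATAC7, and 2 of the regions were called in all 7 libraries.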
